A study of Homo sapiens with 6 samples.

Results

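Genes of the mitochondrial protein import machinery and of the SLC25 family of mitochondrial carriers were compared between shikonin-treated and untreated MDA-MB-231 cells. Members were the rows of the authors' deposited table whose gene name begins with TIMM, TOMM, CHCHD or SLC25A followed by a digit, which gave 35 of 7150 rows: 18 import genes (TIMM, TOMM and CHCHD) and 17 SLC25 carriers. MDA-MB-231 is an established human triple-negative breast cancer line, and all libraries carry the genotype label WT. The series holds 3 control libraries, labelled as untreated, and 3 libraries of cells given 0.5 µM shikonin, a plant naphthoquinone, for 24 h. Micromolar is a reading of the label, whose unit has a lower-case m. No vehicle is named in the labels. Each library is total RNA of the whole culture, so fewer cells and less RNA per cell cannot be told apart. Whether replicate libraries were grown as separate cultures is not stated in the labels. The p-values therefore cover only the spread among these 6 libraries, which may be technical.

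The table holds 1 comparison and 0 columns of per-sample values, so neither the level of a gene in a single library nor the depth of each library can be given. It lists only genes that passed the authors' DESeq2 test, with adjusted p-values under 0.05 and differences of more than 1.5-fold. A family member that is not listed either missed these thresholds or was not tested, and its value is not held. The header does not name the numerator, and a positive value, marked "up" by the authors, is taken to mean higher in shikonin. The mean in each group was solved from the authors' mean over all libraries and their fold, and is called the implied mean, in normalized counts. Intervals are 95% normal intervals from the authors' standard error.

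Most mitochondrial proteins are made in the cytosol and enter through the TOM complex of the outer membrane. From there the TIM23 complex of the inner membrane takes proteins with a cleavable presequence, and the TIM22 complex inserts multi-spanning proteins, among them the SLC25 carriers themselves. Between the membranes the small TIM chaperones escort carrier precursors, while the oxidoreductase encoded by CHCHD4 (MIA40) traps small proteins by forming disulfide bonds in them. The SLC25 carriers exchange nucleotides, phosphate, organic acids, amino acids and cofactors across the inner membrane. Among the CHCHD proteins only CHCHD4 is part of the import machinery. The others are mostly small proteins of the mitochondria that use this pathway, and they are grouped here with import genes by name.

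The small TIM and CHCHD proteins are recognised by paired cysteines, which the oxidoreductase joins by disulfide bonds. A search of the longest coding sequence of each annotated gene (GENCODE 29, GRCh38) for 2 pairs of cysteine codons, with 3 codons between the members of a pair and at most 30 codons between the pairs, found 6 TIMM genes, 4 of them listed. With 9 codons between the members of a pair, the search found all 8 CHCHD genes, 7 of them listed, which is how that family is defined. Neither spacing was found in a TOMM gene or in any of the 48 SLC25 genes. The stretches of the 4 listed small TIM chaperones are shown to let the spacing be compared, read 5′ to 3′ with the paired cysteine codons in capitals.
TIMM8B, codons 51 to 74: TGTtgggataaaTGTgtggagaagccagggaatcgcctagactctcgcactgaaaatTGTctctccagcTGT
TIMM9, codons 28 to 52: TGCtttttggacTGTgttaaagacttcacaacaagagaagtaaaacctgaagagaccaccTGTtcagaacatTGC
TIMM10, codons 29 to 54: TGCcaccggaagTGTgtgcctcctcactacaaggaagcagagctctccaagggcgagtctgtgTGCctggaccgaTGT
TIMM13, codons 46 to 69: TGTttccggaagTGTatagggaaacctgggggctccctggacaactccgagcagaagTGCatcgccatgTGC
The wider spacing is shown for the 4 import genes with the largest increases, all CHCHD genes, and for CHCHD4, the oxidoreductase.
CHCHD5, codons 12 to 44: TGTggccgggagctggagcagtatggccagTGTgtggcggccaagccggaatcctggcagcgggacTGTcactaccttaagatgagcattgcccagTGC
CHCHD2, codons 114 to 144: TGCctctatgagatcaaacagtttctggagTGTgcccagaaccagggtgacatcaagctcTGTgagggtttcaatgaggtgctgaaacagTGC
CHCHD6, codons 198 to 229: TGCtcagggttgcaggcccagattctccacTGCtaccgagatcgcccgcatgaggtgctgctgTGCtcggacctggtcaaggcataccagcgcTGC
CHCHD1, codons 45 to 76: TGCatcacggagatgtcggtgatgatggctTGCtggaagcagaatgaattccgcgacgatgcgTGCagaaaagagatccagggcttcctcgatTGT
CHCHD4, codons 77 to 110: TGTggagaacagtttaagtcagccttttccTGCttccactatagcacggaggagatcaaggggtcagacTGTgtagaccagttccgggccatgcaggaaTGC
Of the 14 import genes with paired cysteine codons, 11 were listed, and all 11 were higher in shikonin, with a median log2 fold change of 1.24. Of the other 19 import genes, 6 were listed, all higher, with a median of 1.00. The shares listed, 78.6% and 31.6%, stand beside 34.7% of all annotated protein-coding genes and 50.2% of about 14253 genes tested, a number recovered from the adjusted p-values. Over all annotated genes of each set, those with paired cysteine codons had a median of 114 codons against 209 for the other import genes. The listed genes with paired codons had a median transcript of 1159 nt, against 944 nt for the other listed import genes. Direction in this table follows transcript length, as described further on. Against the median log2 fold change of listed genes of like transcript length, the 11 had a median difference of -0.071 and the other 6 of -0.28. In each set the unlisted genes have no value. The genes shown were chosen after their values were seen.

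Listed import genes were higher in shikonin with 1 exception, and listed SLC25 carriers were split. Of the 18 import rows in the authors' deposited table, 17 were higher and 1, the pseudogene TOMM40P4, was lower. Among the 17 carriers 7 were higher and 10 lower. UCP2, of the carrier family under another name, and the carrier-like MTCH1 and MTCH2 were higher and are not counted here. Of the genes tested 50.2% were listed, 25.5% as higher and 24.7% as lower. Among listed genes 50.8% were higher and 49.2% lower. The median log2 fold change was 1.09 for import rows (middle 50% from 0.81 to 1.39), -0.68 for carriers (-0.71 to 0.73) and 0.60 for all listed genes. Since the carriers stand on both sides of a gap in which nothing is listed, their median says only that more of them were lower. GENCODE 29 annotates 33 protein-coding import genes and 48 carriers under these names. Of the import genes 17 (51.5%) were listed and of the carriers 17 (35.4%), beside 34.7% of all annotated protein-coding genes. The difference between the families was not tested, because members are not replicates of a condition.

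**Figure D1:**
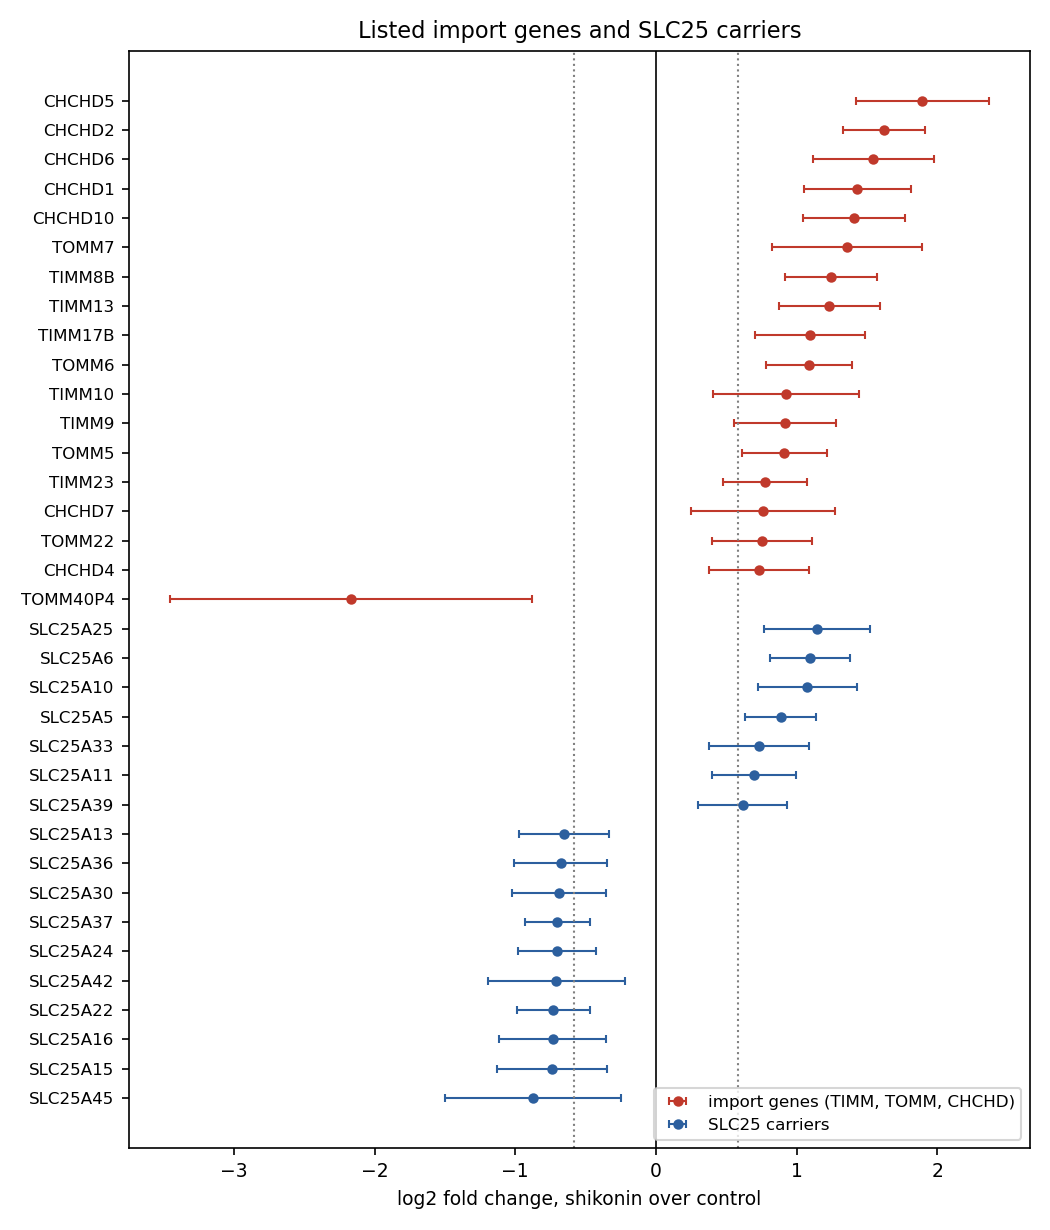
Log2 fold change (shikonin over control) of the 35 listed members, with points as the authors' values and bars as 95% intervals from their standard error; dotted lines mark a 1.5-fold difference. The 17 protein-coding import genes lie to the right of 0 and TOMM40P4 to the left, while carriers form a group of 7 to the right and a group of 10 to the left.

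Past a 2-fold difference few carriers were left. The authors' deposited table gives 10 import genes and 3 carriers at least 2-fold higher, with 32.7% of all listed genes at least 2-fold higher. At least 2-fold lower were 1 import row, TOMM40P4, and 0 carriers, against 29.2% of listed genes. Over the rows past 2-fold alone the median log2 fold change was 1.36 for import rows and 1.10 for carriers, a difference of 0.26 against 1.77 over all members. The interval lay wholly beyond 2-fold for 5 import genes, which were CHCHD5, CHCHD2, CHCHD6, CHCHD1 and CHCHD10, and for 0 carriers. It lay wholly beyond 1.5-fold for 11 of the 17 protein-coding import genes and for 4 of the 17 carriers. Nearest to the threshold stood CHCHD4 (1.66-fold) and TOMM22 (1.69-fold) among import genes, and SLC25A39 (1.53-fold) and SLC25A13 (1.57-fold) among carriers, in the authors' deposited table. Members just outside it are not held. With the implied totals of all listed genes set equal in both groups, a shift of 0.39 on the log2 scale, all 35 members kept their direction, while 10 higher import genes, the 1 lower import row (TOMM40P4), 3 higher carriers and all 10 lower carriers remained past 1.5-fold.

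Transcript length went along with these counts more clearly for import genes than for carriers. Direction in this table follows the length of the mature transcript, taken from the transcript with the longest coding sequence: among listed protein-coding genes 97.0% of the shortest length decile were higher, against 4.62% of the longest. The 17 listed protein-coding import genes had a median transcript of 1099 nt, the 7 higher carriers 1911 nt and the 10 lower carriers 3156 nt. The median over all listed protein-coding genes was 3217 nt. Set against the median log2 fold change of their own length decile, 13 of the 17 import genes stood below it and 4 above, with a median difference of -0.20 on the log2 scale. Against listed transcripts of like length, the median import gene was thus not above them. Carriers were 9 below and 8 above, with a median difference of -0.24. Taken apart by direction, the 7 higher carriers had a median difference of 0.12 and the 10 lower ones of -1.44. By the APPRIS principal transcript these were 0.071 and -0.69. These differences follow in large part from the split itself, because no listed gene lies within 1.5-fold of no change. A lower carrier in a decile with a positive median must stand well below that median. Spearman's rho between length and log2 fold change was -0.23 across the 17 carriers and -0.21 across the 17 import genes. Over all listed protein-coding genes it was -0.70. CHCHD5 depends on the transcript taken for it: it stood 2.63 above its decile median at 3272 nt, and 0.41 above at the 691 nt of its APPRIS principal transcript. At 3272 nt the decile median was -0.73, so any listed higher gene there stood well above it. The part of length in the split was not tested.

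**Figure D2:**
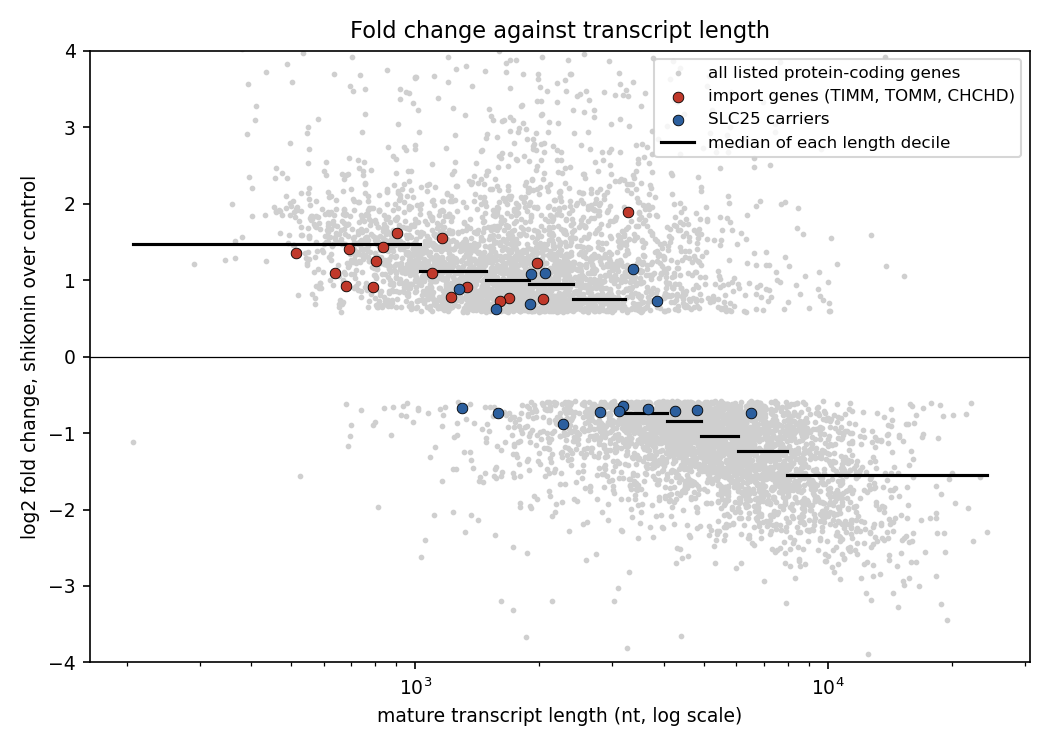
Log2 fold change (shikonin over control) against mature transcript length in nt (log scale) for all listed protein-coding genes (grey), import genes and SLC25 carriers; black lines are the medians of the 10 length deciles, and 175 genes beyond a log2 value of 4 in either direction lie outside the axis. Import genes lie mostly among short transcripts near or under the decile medians. The 10 lower carriers range from 1301 to 6529 nt, with a median of 3156 nt.

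The small subunits of the TOM complex rose together, while most of its receptors and its pore were not listed. All 3 small TOM genes, whose products sit beside the pore, were listed and higher. Of annotated protein-coding genes 34.7% were listed, and of genes tested 50.2%. All 3 have transcripts in the shortest length decile, where 97.0% of listed genes were higher. There TOMM7, TOMM6 and TOMM5 stood at percentiles 40.8, 22.5 and 14.2 of fold change. TOMM7 (chromosome 7, 22812628 to 22822852, minus strand, 4 exons) had implied means of 149 in control and 381 in shikonin, and was 2.56-fold higher per the authors' deposited table (1.77 to 3.71; adjusted p = 2.01e-06). For TOMM6 (chromosome 6, 41787662 to 41789898, 3 exons) the implied means were 2180 and 4637, and the authors' deposited table gives 2.13-fold (1.72 to 2.63; adjusted p = 2.10e-11). These genes encode short proteins, of 125 and 74 codons in their longest annotated coding sequence. TOMM5, the remaining small subunit, went from an implied mean of 955 to 1797, or 1.88-fold higher per the authors' deposited table (1.52 to 2.32). Of the 7 genes for receptors, pore and the cytosolic cofactor TOMM34, only TOMM22 was listed. TOMM22, the central receptor that organises the complex, rose from an implied 518 to 874, which is 1.69-fold per the authors' deposited table (1.32 to 2.15; adjusted p = 7.55e-05). TOMM20, TOMM20L, TOMM34, TOMM40, TOMM40L and TOMM70 were not listed. TOMM40P4, a processed pseudogene of the pore gene on chromosome 2 (131723253 to 131724279, a single exon), was 4.49-fold lower per the authors' deposited table (1.84 to 11.0; adjusted p = 0.00206). Its implied means were 31.7 and 7.06 normalized counts, the lowest level of any member. Its reads may not be fully told from those of TOMM40, and it lies within the C2orf27A locus on the other strand.

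Promoter sequences were examined after the small TOM genes were seen to be higher, as were most listed genes of their length. RefSeq windows from 250 bases before to 50 after the annotated start (GRCh38.p14) matched 28 members by symbol, 14 in each family. They were searched on both strands for GCNTGCG, the core of the motif of NRF1, a known activator of nuclear genes for mitochondria, and for CCGGAAG, the core bound by ETS factors such as GABP. The ETS letters stood in 7 of 14 import genes (50%) and 3 of 14 carriers (21.4%), beside 23.6% of listed higher genes, 21% of listed lower genes and 12.2% of all genes in the promoter table. The NRF1 letters stood in 7 import genes (50%) and 8 carriers (57.1%), beside 36.6% and 39.9% of listed higher and lower genes. Over all genes in the promoter table their share was 23.2%. Among the carriers the NRF1 letters stood in 4 of 7 higher and 4 of 7 lower genes. The ATF4 element TGATGNAA was found in 1 of the 28, SLC25A11, beside 4.46% of all genes. The motifs were chosen after the values were seen, from several that were tried. A longer NRF1 form, with GC before and C after the NRF1 letters, was tried first. It stood in 2 import genes (14.3%) and 1 carrier (7.14%), beside 6.99% of all genes in the promoter table. Of the small TOM genes, TOMM6 had a match for the ETS letters only and TOMM7 for the NRF1 letters only. TOMM5 was not among the genes with a match, which may also mean that it was among the members without a window. A match describes these letters and is not a measured binding site. Stretches of 80 bases that end just before the gene are shown, with the ETS match in capitals for TOMM6, TIMM23 and the most changed carrier and the NRF1 match in capitals for TOMM7 and TIMM9. In TIMM9 a match on each strand overlaps the other.
TOMM6, chr6:41787582-41787661, plus strand: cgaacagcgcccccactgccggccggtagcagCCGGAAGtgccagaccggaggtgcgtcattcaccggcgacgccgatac
TOMM7, chr7:22822853-22822932, minus strand: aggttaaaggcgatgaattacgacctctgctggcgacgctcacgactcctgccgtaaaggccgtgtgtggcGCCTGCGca
TIMM23, chr10:45972369-45972448, plus strand: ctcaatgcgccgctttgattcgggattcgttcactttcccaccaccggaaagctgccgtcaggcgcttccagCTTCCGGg
TIMM9, chr14:58427615-58427694, minus strand: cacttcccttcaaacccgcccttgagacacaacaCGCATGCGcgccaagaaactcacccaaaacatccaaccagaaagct
SLC25A25, chr9:128068121-128068200, plus strand: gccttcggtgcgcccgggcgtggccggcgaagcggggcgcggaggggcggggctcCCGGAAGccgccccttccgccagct

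In the inner membrane translocases, 2 of 7 genes of the TIM23 list (28.6%) were listed, both higher. Of the TIM22 list 0 of 3 genes were listed. These shares lie below the 34.7% of annotated protein-coding genes and the 50.2% of genes tested that were listed. TIMM17B (chromosome X, 48893447 to 48898143, minus strand, 8 exons), a channel subunit of TIM23, had implied means of 853 and 1820 and was 2.13-fold higher per the authors' deposited table (1.63 to 2.79; adjusted p = 1.29e-07). TIMM23, the other channel subunit, went from 1198 to 2049, or 1.71-fold per the authors' deposited table (1.39 to 2.10). TIMM23B, which was not listed, is a near-identical copy that may share its reads, so the value is uncertain. TIMM17A, the paralogue of TIMM17B, was not listed, nor were the receptor TIMM50, the motor anchor TIMM44 and TIMM21. TIMM22, TIMM29 and TIMM10B, which belong to the TIM22 complex for carriers, were not listed either.

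The small TIM chaperones were listed for 4 of 5 genes (80%), all higher. Of annotated protein-coding genes 34.7% were listed, and of genes tested 50.2%. By the longest coding sequence, TIMM13 stood above the median of its length decile, and TIMM8B, TIMM9 and TIMM10 below theirs. TIMM8B (chromosome 11, 112084800 to 112086798, minus strand) rose from an implied 328 to 776, or 2.37-fold per the authors' deposited table (1.89 to 2.97; adjusted p = 7.25e-13). Its partner TIMM13 (chromosome 19, 2425624 to 2427894, minus strand) had the highest level of the group, with implied means of 1132 and 2655, and was 2.35-fold higher per the authors' deposited table (1.83 to 3.01; adjusted p = 1.12e-10). These 2 proteins assemble with each other or with close relatives into a hexamer. The other hexamer is made of TIMM9 and TIMM10, which the authors' deposited table puts at 1.89-fold (1.47 to 2.42) for TIMM9 and 1.89-fold (1.32 to 2.71) for TIMM10, from implied means of 401 to 757 and of 202 to 383. The intervals of all 4 genes overlap. TIMM8A, the X-linked paralogue of TIMM8B, was not listed.

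Of 8 CHCHD genes 7 were listed (87.5%), all higher, with a median log2 fold change of 1.43. Of annotated protein-coding genes 34.7% were listed, of genes tested 50.2%, and 50.8% of listed genes were higher. By the longest coding sequence, CHCHD5, CHCHD2 and CHCHD6 stood above the median of their length decile. CHCHD1, CHCHD10, CHCHD7 and CHCHD4 stood below it, though by the APPRIS principal transcript CHCHD10 stood 0.27 above. The 5 largest increases of the import group were CHCHD genes, while CHCHD4 and CHCHD7 were among its 3 smallest. CHCHD5, an intermembrane space protein gene on chromosome 2 (112584240 to 112589275, 3 exons), had implied means of 106 and 394, and was 3.72-fold higher per the authors' deposited table (2.68 to 5.15; adjusted p = 3.33e-14). CHCHD2, whose product acts in cristae and respiration and also in the nucleus, was the most abundant import member. It lies on chromosome 7 (56101569 to 56106576, minus strand), had implied means of 5215 and 16021, and was 3.07-fold higher per the authors' deposited table (2.51 to 3.75; adjusted p = 1.79e-26). CHCHD10, its paralogue on chromosome 22 (23765834 to 23768443), went from 588 to 1559, or 2.65-fold per the authors' deposited table (2.07 to 3.40; adjusted p = 1.64e-13). The intervals of both paralogues overlap, and the difference between their folds was not tested. CHCHD6 encodes a subunit of MICOS, the complex that holds cristae junctions, and was 2.92-fold higher per the authors' deposited table (2.16 to 3.93; adjusted p = 1.44e-11), from an implied 133 to 387. CHCHD3, the other MICOS subunit of the family, was not listed. CHCHD1, a protein of the small subunit of the mitochondrial ribosome, rose from 593 to 1599, or 2.70-fold per the authors' deposited table (2.07 to 3.51; adjusted p = 1.29e-12). CHCHD4, the oxidoreductase itself, had the smallest fold of the 7, from an implied 349 to 580 or 1.66-fold per the authors' deposited table (1.30 to 2.13). CHCHD7 was 1.70-fold higher (1.19 to 2.42; adjusted p = 0.00695), the highest adjusted p of the higher import genes in the authors' deposited table. The interval of CHCHD2 lay above that of CHCHD4.

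**Figure D3:**
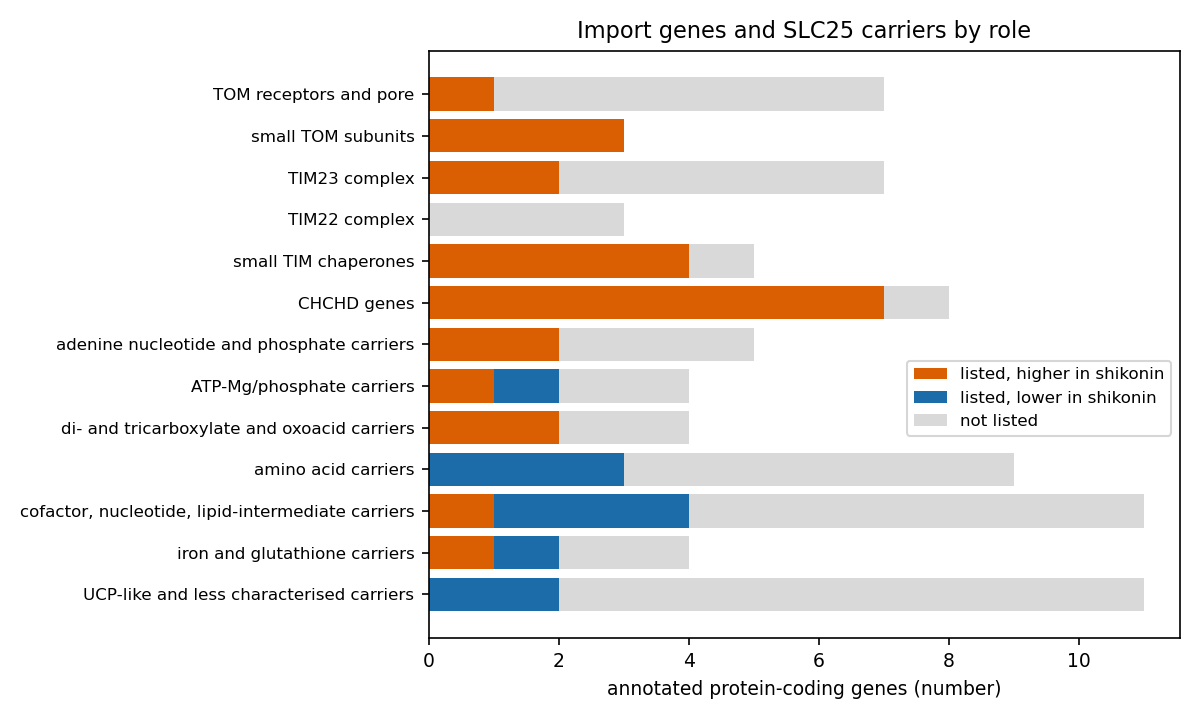
Number of annotated protein-coding genes in each role group that were listed as higher, listed as lower or not listed. All 3 small TOM genes, 4 of 5 small TIM genes and 7 of 8 CHCHD genes were listed as higher. Lower genes are found only in carrier groups. Of all annotated protein-coding genes 34.7% were listed. The pseudogene TOMM40P4 is not drawn.

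Of 5 adenine nucleotide and phosphate carriers 2 were listed (40%), and of 4 di- and tricarboxylate carriers 2 (50%), all 4 of them higher. These shares lie near those of all genes, of which 34.7% of the annotated protein-coding ones and 50.2% of those tested were listed. SLC25A5 and SLC25A6 encode ADP/ATP carriers, which export ATP from the matrix, and had the highest means of the carriers. SLC25A6 (chromosome X, 1386152 to 1392724, minus strand, in the region shared with chromosome Y) went from an implied 5847 to 12507, or 2.14-fold higher per the authors' deposited table (1.76 to 2.61; adjusted p = 3.32e-13). SLC25A5 (chromosome X, 119468400 to 119471319) went from 6711 to 12415, or 1.85-fold per the authors' deposited table (1.55 to 2.20; adjusted p = 3.01e-11). Their intervals overlap. The muscle and heart form SLC25A4, the testis form SLC25A31 and the phosphate carrier gene SLC25A3 were not listed. SLC25A10, the dicarboxylate carrier gene on chromosome 17 (81712236 to 81721016), had implied means of 945 and 1993 and was 2.11-fold higher per the authors' deposited table (1.65 to 2.69; adjusted p = 9.81e-09). SLC25A11, the oxoglutarate/malate carrier gene of the malate-aspartate shuttle, went from 1477 to 2388, or 1.62-fold per the authors' deposited table (1.32 to 1.99). SLC25A1, the citrate carrier gene, and SLC25A21, the oxoadipate carrier gene, were not listed. SLC25A39, which is needed for glutathione import into mitochondria, went from 3046 to 4669, or 1.53-fold higher per the authors' deposited table (1.23 to 1.91; adjusted p = 3.20e-04).

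Of 9 amino acid carriers 3 were listed (33.3%), each lower. This share is near the 34.7% of all annotated protein-coding genes, and the other 6 have no value. SLC25A13, the aspartate/glutamate carrier gene (citrin) of the malate-aspartate shuttle, fell from an implied 839 to 534, or 1.57-fold per the authors' deposited table (1.26 to 1.96; adjusted p = 1.55e-04). In the same shuttle SLC25A11 was higher, and SLC25A12, the paralogue of SLC25A13, was not listed. SLC25A22 (chromosome 11, 790475 to 798333, minus strand), a glutamate carrier gene, fell from 2110 to 1271, or 1.66-fold per the authors' deposited table (1.39 to 1.99; adjusted p = 1.30e-07). SLC25A15 (chromosome 13, 40789412 to 40810111), the ornithine carrier gene of the urea cycle, fell from 473 to 283, or 1.67-fold per the authors' deposited table (1.27 to 2.19; adjusted p = 4.89e-04). SLC25A15 has a transcript of 1586 nt, in a length decile of which 90.8% were higher, and stood at percentile 8.09 of fold change there.

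Some related carriers, paired here after their values were seen, moved in opposite directions. The ATP-Mg/phosphate carriers adjust the adenine nucleotide pool of the matrix and respond to calcium. SLC25A25 (chromosome 9, 128068201 to 128109245, 11 exons) rose from an implied 446 to 985, or 2.21-fold per the authors' deposited table (1.70 to 2.87; adjusted p = 1.08e-08), the most of any carrier. SLC25A24 (chromosome 1, 108134036 to 108200849, minus strand) fell from 2247 to 1377, or 1.63-fold per the authors' deposited table (1.35 to 1.98; adjusted p = 2.02e-06). On the log2 scale the values of these paralogues differ by 1.85. Both transcripts are long (3376 and 4271 nt), and in the decile of SLC25A25 only 32.8% of listed genes were higher. The pyrimidine nucleotide carrier genes SLC25A33 and SLC25A36 were likewise apart by 1.41 on the log2 scale. SLC25A33 rose from 384 to 638, or 1.66-fold (1.30 to 2.12; adjusted p = 1.38e-04), and was the only higher gene among the 4 listed of its role group in the authors' deposited table. SLC25A36 fell from 890 to 557, or 1.60-fold per the authors' deposited table (1.27 to 2.01). The transcript of SLC25A36 measures 1301 nt by the longest coding sequence and 4638 nt by the APPRIS principal transcript, so its place in the length order is uncertain. Iron and glutathione carriers were also on both sides: SLC25A37 (mitoferrin-1, which brings iron in for heme and iron-sulfur clusters) fell from 4816 to 2963, or 1.63-fold per the authors' deposited table (1.39 to 1.91; adjusted p = 9.79e-09), while SLC25A39 was higher. Their paralogues SLC25A28 and SLC25A40 were not listed.

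The remaining lower carriers are linked to coenzyme A or are less well characterised. SLC25A16, linked to coenzyme A transport, fell from an implied 329 to 198, or 1.66-fold per the authors' deposited table (1.28 to 2.17; adjusted p = 4.00e-04). SLC25A42, which exchanges coenzyme A for adenine nucleotides, fell from 263 to 161, or 1.63-fold per the authors' deposited table (1.17 to 2.29; adjusted p = 0.00859). SLC25A30, an uncoupling-protein-like carrier gene, fell from 616 to 382, or 1.61-fold per the authors' deposited table (1.28 to 2.03). SLC25A45 had the largest decrease among carriers and their lowest level, from 104 to 56.8, or 1.84-fold per the authors' deposited table (1.19 to 2.83; adjusted p = 0.0112). Its interval is the widest of the carriers and overlaps those of the other 9 lower ones. Differences among the lower carriers were not tested, so they are not ordered among themselves. With a transcript of 2286 nt SLC25A45 stood at percentile 9.97 of its length decile.

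**Figure D4:**
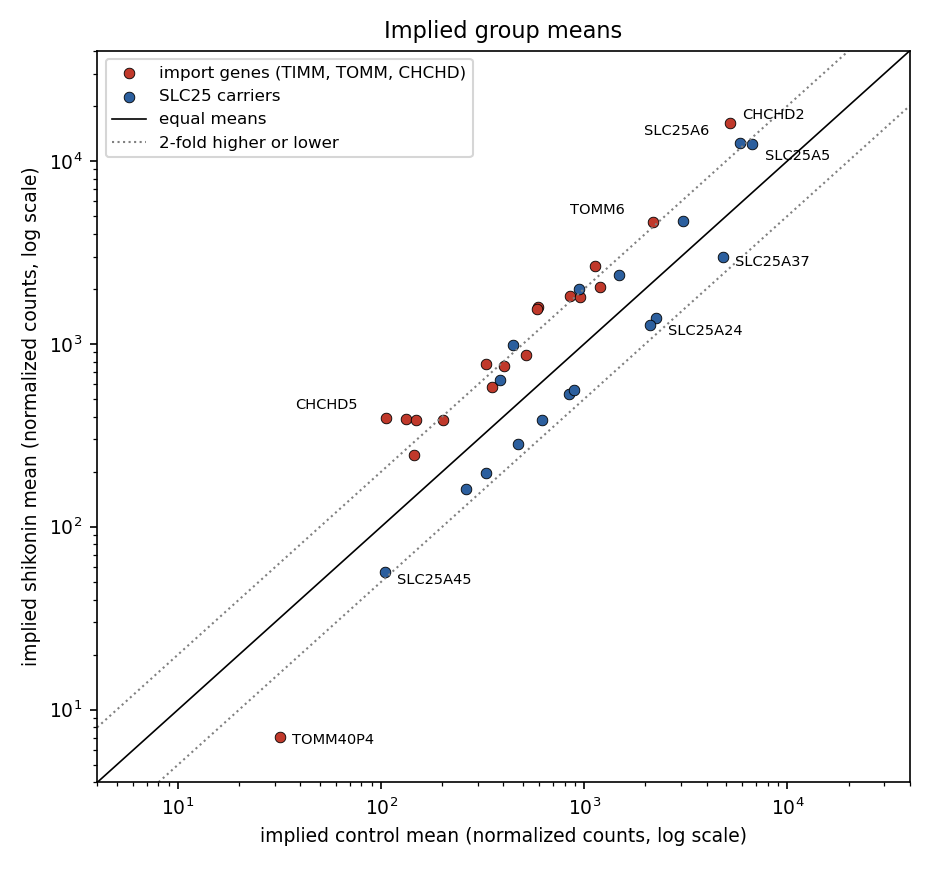
Implied mean normalized count in shikonin against that in control for the 35 members, both on log scales; the solid line marks equal means and dotted lines a 2-fold difference. CHCHD2, SLC25A5 and SLC25A6 have the highest means and lie above the solid line, TOMM40P4 has the lowest, and the 10 lower carriers lie between the solid line and the lower dotted line.

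Summed over members, the implied mean of import rows went from 15076 to 36922 normalized counts, a ratio of 2.45, of which CHCHD2 gives the largest share. The sum over carriers went from 31541 to 43377, a ratio of 1.38, beside 1.31 for all listed genes. Carriers listed as higher summed to 18856 and 35596, and those listed as lower to 12685 and 7782. Per kilobase of transcript, CHCHD2 had the highest implied level of all members in shikonin, at 17781 normalized counts per kb against 9745 for SLC25A5 and 7279 for TOMM6. In control it stood at 5788, close to SLC25A5 at 5268. The lowest protein-coding members per kb were SLC25A45 in shikonin, at 24.9 after 45.6 in control, and CHCHD5 in control, at 32.4 before 120 in shikonin, with CHCHD5 taken at 3272 nt.

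Of 61 partner genes in import, membrane shaping, proteolysis and transport, 35 (57.4%) were listed, 26 higher and 9 lower. Listed were 34.7% of annotated protein-coding genes and 50.2% of genes tested. Whether each unlisted partner was tested is not known. Of 22 genes for the import motor, presequence processing and assembly, 10 were higher, 1 lower and 11 not listed, so that 50% were listed. HSPE1, the cofactor of the matrix chaperonin, was 6.53-fold higher per the authors' deposited table (5.24 to 8.13), and its partner HSPD1 1.91-fold (1.62 to 2.26). HSPA9, the HSP70 of the import motor, was 1.57-fold higher (1.34 to 1.83), and DNAJC19 and DNAJC15, J-proteins of that motor, 1.55-fold (1.18 to 2.03) and 2.47-fold per the authors' deposited table (1.93 to 3.16). The metaxin genes of the outer membrane assembly machinery were split: MTX1 was 1.80-fold and MTX2 1.57-fold higher, while MTX3 was 4.85-fold lower per the authors' deposited table (3.52 to 6.69). The rest of the higher genes were ROMO1, IMMP1L and OXA1L. PMPCA, PMPCB, SAMM50, GFER and 7 more were not listed.

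For MICOS, 4 of 5 partner genes were listed (80%), beside 34.7% of annotated protein-coding genes and 50.2% of those tested. MICOS10, MICOS13 and APOO were 3.03-fold to 3.12-fold higher and APOOL was 2.93-fold lower per the authors' deposited table (2.19 to 3.91). The MICOS gene CHCHD6, a member above, rose with the first 3 of these. Inner membrane and matrix proteases were 2 higher (CLPP, LONP1) and 3 lower (AFG3L2, SPG7, CLPX) of 7, so that 71.4% were listed. Among 27 other channels and transporters 11 were higher, 4 lower and 12 not listed. The 55.6% listed stands beside 34.7% of annotated protein-coding genes and 50.2% of genes tested. UCP2, an uncoupling protein of the carrier family under another name, was 3.04-fold higher (2.46 to 3.74), and the carrier-like MTCH1 and MTCH2, an outer membrane insertase, 1.72-fold and 1.55-fold, in the authors' deposited table. LETM1, an inner membrane ion exchanger, had the largest decrease of these at 2.53-fold lower per the authors' deposited table (2.13 to 3.01). Other lower genes were SFXN1, SFXN5 and ABCB10. All 9 lower partners have transcripts longer than the median of listed protein-coding genes, among them MTX3 (7910 nt), APOOL (6445 nt) and LETM1 (5462 nt). Of the 26 higher partners 4 do, which are DNAJC15 (7853 nt), HSPA9 (4727 nt), MICOS10 (3712 nt) and LONP1 (3236 nt).

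Some values rest on reads that other loci may share. GENCODE 29 names 51 pseudogenes after 12 of the members, 10 of them after CHCHD2 and 9 after SLC25A5, and 0 of the 51 are listed. The span of 23 members overlaps another annotated gene. For TOMM6, TOMM5 and SLC25A10 a protein-coding locus on the same strand covers most of the gene: AL365205.1 covers 100% of TOMM6, AL513165.2 98.3% of TOMM5 and AC139530.2 94.6% of SLC25A10, and these loci are not listed. How reads were assigned between them was not stated. Another listed gene overlaps 5 members: TIMM8B (SDHD), TIMM13 (LMNB2 and TMPRSS9), TIMM17B (PQBP1), TIMM9 (KIAA0586) and SLC25A25 (NAIF1). The sources used here do not say whether counting used strand, so reads in these overlaps cannot be told apart.

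The cell line label was checked on marker genes as far as the table allows. VIM, the mesenchymal filament gene, had an implied control mean of 46972 and was higher in shikonin, as were SNAI2 and SPARC, and the other 4 of 7 mesenchymal markers were not listed. Of 10 luminal epithelial markers, EPCAM, FOXA1, KRT8, KRT18 and KRT19 were higher and ERBB2 lower, and their summed implied means went from 24429 in control to 61049 in shikonin. LYZ and PECAM1 were the listed leukocyte and endothelial markers, both higher, and 0 of 4 fibroblast markers were listed. Levels of unlisted markers are not held, and the part of these shifts in the results on import genes and carriers was not tested.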

How the data were processed

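RNA-seq libraries (3 per group) were prepared from total RNA with an NEBNext Ultra kit, per the labels' protocols. Per the submitters' processing notes, fastp, HISAT2 2.0.5 and DESeq2 were used with the hg38 build; which read counter and annotation the authors used was not stated. In the authors' deposited table the mean normalized count is a signal, the average of all libraries scaled by size factors. Also in it, per the file headers, are the authors' log2 fold change with a standard error, a Wald score, and a p-value with its adjusted form. Sign and mark matched in 7150 rows. The smallest fold was 1.50 and the largest adjusted p 0.0498.

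With 0 columns of per-sample values, no count model was fitted and depth is unknown. Implied means assume equal weight of both groups. The number tested was recovered from p, adjusted p and rank over the top 200 ranks, a step tested on simulated data. GENCODE 29 was matched by Ensembl identifier for all 35 members. Length was taken from the transcript with the longest coding sequence, with the APPRIS principal transcript as an alternative. Members and lists were chosen with earlier results of these data known. Every listed member is named, with full values for the 10 largest changes in each family (mean of at least 50), for lower import genes and for members against the majority of a role group with at least 3 listed. The alternatives were equal implied totals, stricter thresholds, protein-coding rows, import genes without CHCHD and differences from the length decile. Python 3.11.15, pandas 2.3.3, SciPy 1.17.1 and matplotlib 3.10.9 were used.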

Additional observations from a re-analysis of the deposited data

How the results depend on the processing

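No paired analysis was possible because the table holds no per-sample values, and for the same reason leaving out replicates was not run. The spread used to judge medians is the median standard error of the members (0.18 for import genes, 0.17 for carriers). With equal implied totals (a shift of 0.39 in log2) 10 import genes and 3 carriers were higher, 1 import row and 10 carriers lower, the median of the carriers was -1.09 and the difference of medians, import minus carriers, was 2.06, against 1.77 with the authors' scaling. Unlisted genes that would enter as lower are not held. At 2-fold or more there were 10 import genes and 3 carriers higher, and 1 import row and 0 carriers lower, with medians of 1.36 and 1.10, the second of them reversed, and a difference of 0.26. At an adjusted p below 0.001, at a mean of at least 100, or over protein-coding rows, 0 import genes were lower, because TOMM40P4 drops out. Without CHCHD genes 10 import genes were higher. Taken as differences from the length decile (longest coding sequence), 4 import genes were above and 13 below, with a median of -0.20, reversed. The carriers had a median of -0.24 and the difference of medians was 0.038. With the APPRIS transcript, an alternative chosen after seeing the data, 5 import genes were above and 12 below, the medians were -0.22 for import genes and 0.034 for carriers, and the difference was -0.26, so that all 3 reversed. The other 32 values kept their direction and stayed within 1.5 times of the count or within the spread.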
